A study of Caenorhabditis elegans with 2 samples.

Results

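The regions described are 1056 places inside introns of protein-coding genes on the autosomes of Caenorhabditis elegans where ChIP-seq of the nuclear receptor NHR-84 gave a high pooled signal. They were chosen by that signal. The pooled list of 30000 regions was ranked by the peak caller's signal, and ranks 1 to 5000 off chromosome X and the mitochondrial genome were kept, which left 4182 autosomal regions. A region was taken as intronic when its summit lay inside a coding gene and in none of that gene's exons. Summits between 500 bp upstream and 100 bp downstream of any coding transcription start site were counted as promoter regions and left out. The intronic regions were 25.3% of the 4182 autosomal regions, and the positions that could meet the rule made up 31.6% of autosomal bases.

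Chromatin came from whole first-stage (L1) larvae of strain OP357, whose genotype is given as unc-119(tm4063) III; wgIs357. The animals were of pooled sexes, and NHR-84 with GFP-FLAG at its C-terminus came from a stable transgene. The antibody is named in the labels by its target alone. There were 2 biological replicates of this 1 genotype and stage, no second condition, and a control library that was not analysed here, so differences between conditions could not be described. The worm's own nhr-84 gene is not said to be absent, whole animals mix all cell types, and what promoter drives the transgene is not stated in the labels. Read counts are not part of the lists, and the depth behind a signal is unknown. The signal has its own scale in the pooled list and in each replicate's list, and values are compared only within a list.

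Nuclear hormone receptors are transcription factors with a zinc-finger DNA-binding domain, and many of them are switched by small lipophilic ligands. The family is greatly expanded in nematodes, and several of its members that have been studied in C. elegans regulate fat and energy metabolism. Introns of C. elegans are mostly short, but long introns can hold enhancers, internal start sites and whole genes for small RNAs, among them small nucleolar RNAs (snoRNAs), which guide modification of other RNAs, small nuclear RNAs (snRNAs), tRNAs and microRNAs.

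Sequences of 151 bases centred on the summit are printed for members with a high pooled signal and a region in both replicates, because they show what lies under the strongest intronic summits, from AG-rich intron sequence to small RNA genes. All are the plus strand of ce11, read from the RefSeq assembly of the same build. In the first 6, capitals mark 10 fixed words searched on both strands, which are the nuclear receptor half-site AGGTCA, its variant AGTTCA, the forkhead word GTAAACA, the bZIP word TGACTCA, the E-box CACGTG, the GATA core GATAA, the repeat GAGAGA, and the GC-rich words CGCGCA, then CCTGCG, then GAGCGC. Where TTATC is in capitals it is GATAA on the minus strand, and TGCGCG is in the same way the GC-rich word CGCGCA. In the last 3, capitals mark the bases of an annotated small RNA gene, and words are not marked.
W06H8.6, intron 5, chrV:6224679-6224829: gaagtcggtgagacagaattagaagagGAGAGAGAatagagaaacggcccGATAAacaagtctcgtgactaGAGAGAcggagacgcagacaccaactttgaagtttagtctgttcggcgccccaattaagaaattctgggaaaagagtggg
icl-1, intron 2, chrV:726989-727139: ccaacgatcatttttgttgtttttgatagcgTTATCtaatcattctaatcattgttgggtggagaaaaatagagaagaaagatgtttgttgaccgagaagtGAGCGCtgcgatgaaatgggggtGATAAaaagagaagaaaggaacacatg
aakg-1, intron 9, chrIII:12549857-12550007: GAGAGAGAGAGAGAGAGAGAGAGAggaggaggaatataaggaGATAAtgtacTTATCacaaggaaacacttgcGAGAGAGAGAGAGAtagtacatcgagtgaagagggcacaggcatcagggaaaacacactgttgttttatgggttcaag
cgt-1, intron 6, chrV:15887196-15887346: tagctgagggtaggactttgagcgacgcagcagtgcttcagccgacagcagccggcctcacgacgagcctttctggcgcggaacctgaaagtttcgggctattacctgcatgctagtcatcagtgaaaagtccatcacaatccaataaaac
nhr-21, intron 3, chrII:7345790-7345940: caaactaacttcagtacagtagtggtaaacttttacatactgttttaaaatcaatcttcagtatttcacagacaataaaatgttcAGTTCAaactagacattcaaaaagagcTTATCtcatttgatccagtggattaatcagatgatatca
Y56A3A.7, intron 3, chrIII:11946414-11946564: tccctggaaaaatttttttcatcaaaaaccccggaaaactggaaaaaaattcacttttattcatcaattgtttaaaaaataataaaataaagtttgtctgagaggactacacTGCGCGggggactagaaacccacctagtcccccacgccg
pxn-1 with snoRNA ZK994.7, chrV:8500445-8500595: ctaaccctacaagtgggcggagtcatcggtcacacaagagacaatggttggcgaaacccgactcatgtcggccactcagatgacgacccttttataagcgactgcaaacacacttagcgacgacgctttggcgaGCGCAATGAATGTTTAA
dhc-4 with snRNA R07E5.16, chrIII:10989582-10989732: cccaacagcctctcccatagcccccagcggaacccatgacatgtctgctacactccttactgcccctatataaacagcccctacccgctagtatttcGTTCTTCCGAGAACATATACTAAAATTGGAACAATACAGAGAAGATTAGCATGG
frm-7 with snoRNAs C51F7.4 and C51F7.3, chrV:12303583-12303733: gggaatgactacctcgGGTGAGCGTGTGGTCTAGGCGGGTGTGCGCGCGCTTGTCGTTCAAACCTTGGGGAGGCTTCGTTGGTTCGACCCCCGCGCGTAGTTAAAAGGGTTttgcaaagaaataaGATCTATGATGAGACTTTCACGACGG

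GAGAGA runs lie around the W06H8.6 summit and, as longer repeats, in the aakg-1 window. The nhr-21 window holds AGTTCA, the only half-site word among the 6 windows in which words were marked. The cgt-1 window holds none of the 10 words. A word match is a description of letters and not a binding site.

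The highest member lay in the last intron of W06H8.6 at pooled rank 15, with a signal of 92.6 in the pooled list, 52.3 in replicate 1 (rank 10) and 41.3 in replicate 2 (rank 27). Its summit also lay inside the noncoding RNA gene W06H8.16. The second lay in intron 17 of pxn-1, which encodes a peroxidasin of the extracellular matrix, with a signal of 85.6 in the pooled list, 48.4 in replicate 1 and 25.3 in replicate 2. The region in intron 31 of dhc-4, a dynein heavy chain gene, had 81.0 pooled, 38.9 in replicate 1 and 40.8 in replicate 2. These 3 ranked no lower than 247 in either replicate and were the only members at or under a caller's q-value of 0.05, each with q = 0.0182.

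Below them the replicates diverged at several regions. The region in the first intron of mdt-26, a Mediator subunit gene (pooled rank 34, signal 69.5), ranked 21 in replicate 2 with a signal of 44.4, and replicate 1 had no region within 100 bp, the nearest being 191 bp away. The same held for the first introns of skn-1, the Nrf-type stress response factor (pooled signal 61.4, rank 30 in replicate 2), and of unc-108, a Rab GTPase gene (55.8, rank 24 in replicate 2). Their nearest regions in replicate 1 were 207 and 144 bp away. In the other direction, icl-1, which encodes the bifunctional glyoxylate cycle enzyme, had rank 24 in replicate 1 and rank 2104 in replicate 2, with signals of 38.9 and 17.7. The region in cgt-1, a ceramide glucosyltransferase gene, had rank 23 in replicate 1 and rank 7736 in replicate 2, with 39.97 and 13.7. At icl-1 and cgt-1 a high pooled signal thus went with a high rank in 1 replicate and a far lower rank in the other. At mdt-26, skn-1 and unc-108 the absence from replicate 1 depends on the 100 bp limit. The nearest summits there lay closer than the 290 bp width of a replicate 1 region. All the regions named in this paragraph are within pooled ranks 1 to 106. They are thus among the 14 members in the deposited list that passed the irreproducible discovery rate step.

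Other regions ranked high in both lists. They include haf-9, an ABC transporter gene (rank 115 in replicate 1 and rank 72 in replicate 2), nhr-21 (ranks 230 and 109), pde-6, a cyclic nucleotide phosphodiesterase gene (ranks 384 and 126), and kin-1, the protein kinase A catalytic subunit gene (ranks 385 and 216). Of the 20 highest members, 17 had a region within 100 bp in both replicates, and 16 ranked in the first 5000 of both. Over all 5000 pooled regions these shares were 61.3% and 11.3%, and the pooled signal that picked the 20 joins both replicates. Their hosts were mixed in function and include aakg-1 (an AMP-activated kinase gamma subunit), mpk-1 (an ERK MAP kinase), ida-1 (a dense core vesicle protein) and dnj-20 (a J-domain protein). These 20 regions lay in introns of 117 to 11917 bp. The host's first intron held 6 of them, and first introns held 28.3% of all 1056 members. A noncoding RNA gene other than a piRNA gene lay within 200 bp of 6. That share was not counted over all members, and with piRNA genes included it was 12.1% of them. None of the 20 windows of 101 bases around the summit held a run of 36 bases that occurs elsewhere in the genome.

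**Figure D1:**
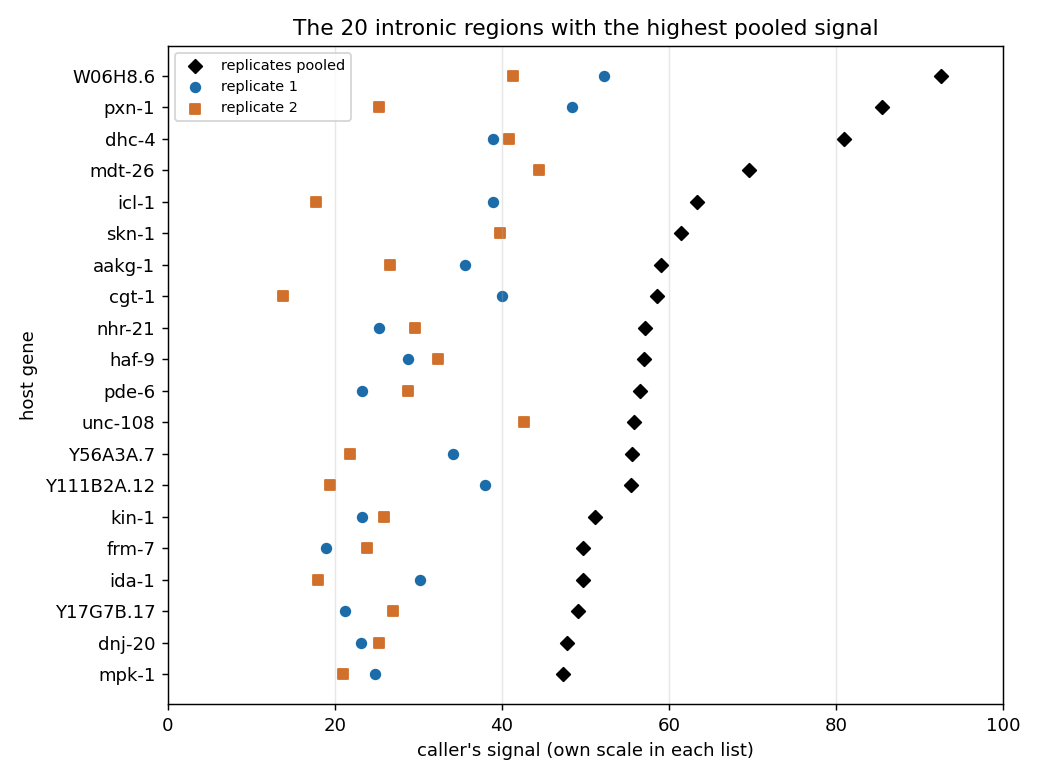
Caller's signal (x axis, on the list's own scale) of the 20 intronic regions with the highest pooled signal, named by host gene; black diamonds are the pooled list, blue circles replicate 1 and orange squares replicate 2. Pooled signals run from 92.6 to 47.3, the circles from 18.9 to 52.3 and the squares from 13.7 to 44.4, and mdt-26, skn-1 and unc-108 have no circle.

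Over all 1056 members, the pooled signal ran from 26.1 to 92.6 with a median of 29.2, so most lay close to the lower limit that rank 5000 set. The caller's q-value was over 0.5 for 1038 of them (98.3%). The members just inside the limit were at F14B4.1 (rank 4989, signal 26.0730), dre-1 (rank 4990, 26.0727) and rheb-1 (rank 4995, 26.0688). The intronic regions just outside it were at unc-105 (rank 5004, 26.0521), cdh-10 (rank 5010, 26.0421) and kin-1 (rank 5011, 26.0421). These 6 signals differ from the second decimal on, so the limit marks no step in the data.

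A region with a summit within 100 bp was present in both replicate lists for 629 of the 1056 members (59.6%, 95% Wilson interval 56.6 to 62.5), and the same was true of 61.3% of all 5000 pooled regions. Only replicate 1 had such a region for 211 members, only replicate 2 for 205, and neither for 11. For intronic regions ranked below 5000, called weaker intronic regions from here on, both replicates had a region for 728 of 6088 (11.96%). The pooled signal that chose the members joins both replicates, so this gap is a description and no test was made. Members at ranks 1 to 5000 of both replicates numbered 94 (8.90%, 7.33 to 10.8), against 11.3% of all 5000 pooled regions. Intervals given here cover counting error over regions, which share their libraries and are not replicates of a condition.

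Few intronic summits were shared by the top of both replicates' lists. Applying the same rank and position rule to each replicate's own list gave 1023 intronic regions in replicate 1 and 1102 in replicate 2, and 84 of these were shared within 100 bp, which is 8.21% of the regions of replicate 1 and 7.62% of those of replicate 2. This overlap was not counted for regions of other places, so these shares are not shown to be particular to introns. The pooled members matched 387 intronic regions of replicate 1 and 426 of replicate 2. All but the 94 members above thus ranked below 5000, or had no region, in at least 1 replicate.

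Intronic sequence held a smaller share of the strongest regions than of the weaker ones. Among autosomal regions, 14 of 84 were intronic at ranks 1 to 106 (16.7%, 10.2 to 26.1), which is the set in the deposited list that passed the irreproducible discovery rate step. The share was 21.4% at ranks 107 to 500 and 20.2% at ranks 501 to 1000, and it lay between 25.1% and 29.8% in the 4 steps from rank 1001 to 5000. Below rank 5000 it was 29.5% (6088 of 20627), close to the 31.6% of autosomal bases that meet the position rule. Presence in both replicates fell with rank over all autosomal regions and, from rank 107 on, over intronic regions. For intronic regions it was 78.6% (11 of 14), 87.3% and 81.6% in the first 3 of these steps and 42.3% in the last of the members' steps. For all autosomal regions it was 89.3%, 83.7%, 76.8% and 46.2% in the same steps.

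**Figure D2:**
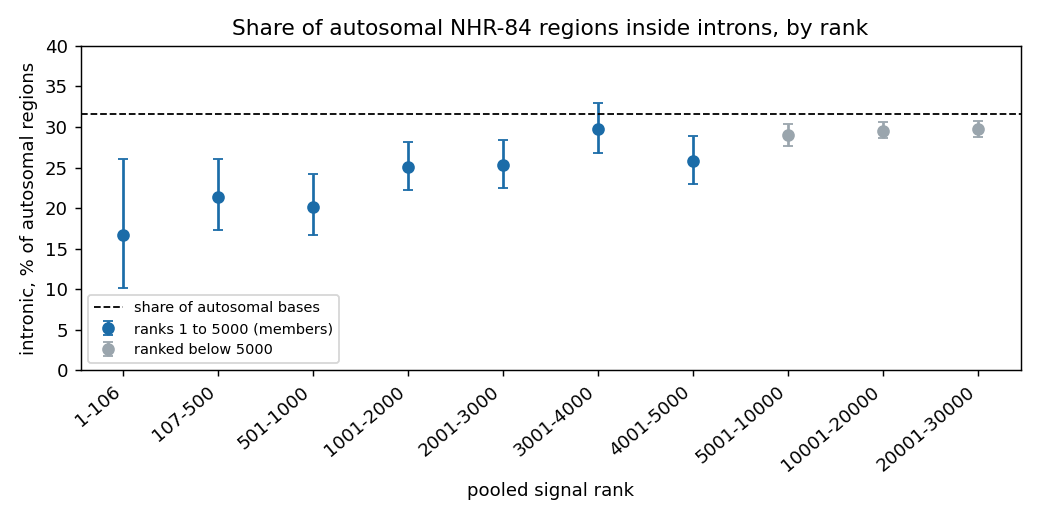
Percent of autosomal regions that are intronic (y axis) in 10 steps of pooled rank (x axis, strongest at left); blue points are ranks 1 to 5000, grey points weaker ranks, bars are 95% Wilson intervals, and the dashed line is the 31.6% of autosomal bases that meet the position rule. The 3 leftmost points, at 16.7%, 21.4% and 20.2%, are the lowest, and every interval but that of ranks 3001 to 4000 lies below the dashed line.

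Set beside autosomal regions of other places in ranks 1 to 5000, the intronic regions had a lower median signal than promoter regions and one close to that of exonic regions. The median signal was 29.2 for intronic, 30.5 for the 1025 promoter, 29.8 for the 1012 intergenic and 29.1 for the 1089 exonic regions. Presence in both replicates within 100 bp was 59.6% for intronic, 61.3% for promoter, 61.4% for intergenic and 63.5% for exonic regions. The classes were further apart in the stricter count, ranks 1 to 5000 of both replicates, with 8.90% of intronic, 16.1% of promoter (13.97 to 18.5), 11.6% of intergenic and 8.45% of exonic regions. The classes do not sit at the same ranks, with a median rank of 2688 for intronic and 2034 for promoter regions and 172 against 300 regions at ranks 1 to 1000. Within ranks 1 to 1000 the stricter count was 44.8% for intronic, 46.7% for promoter, 43.2% for intergenic and 37.9% for exonic regions, so most of the gap over all 5000 ranks was not seen there. In the next 1000 ranks it was 6.19% for intronic, 10.7% for promoter, 10.1% for intergenic and 10.3% for exonic regions, and below rank 2000 it was at most 1.90% in any class.

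**Figure D3:**
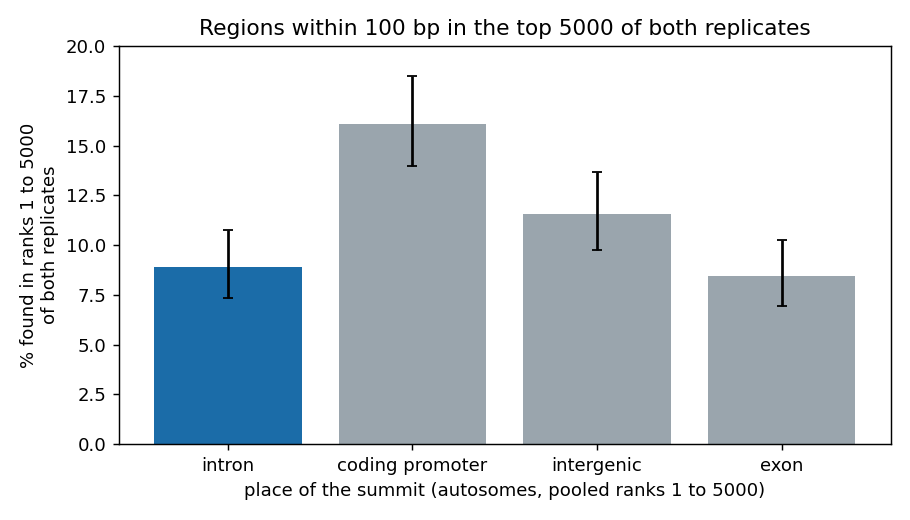
Percent of autosomal regions of pooled ranks 1 to 5000 (y axis) that have a summit within 100 bp at ranks 1 to 5000 of both replicates, by place of the summit (x axis); bars start at 0 and error bars are 95% Wilson intervals. Intronic regions stand at 8.90%, promoter regions at 16.1%, intergenic regions at 11.6% and exonic regions at 8.45%, but the classes differ in rank, and within ranks 1 to 1000 intronic regions stand at 44.8% and promoter regions at 46.7%.

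All 5 autosomes held members, at 41.4 per Mb of eligible intron on chromosome I (235 members), 33.4 on II (148), 43.6 on III (221), 44.02 on IV (233) and 39.1 on V (219). Eligible intron means the 26.1 Mb of intron bases that meet the position rule. Weaker intronic regions were spread more evenly, from 226 to 238 per Mb, so chromosome II was low among members and not among weaker regions. Regions of all places at ranks 1 to 5000 were also fewest on chromosome II, although it is longer than I and III. They numbered 655 there, against 811 on I, 858 on III, 939 on IV and 919 on V. The low value on II is therefore not shown to be particular to introns. With each chromosome divided into 3 equal parts, members were at 48.6 per Mb in the middle part and 37.4 per Mb in the outer parts, against 254.9 and 225.4 per Mb for weaker intronic regions. The ratio of middle to outer was 1.30 for members, 1.45 for the intronic regions of replicate 1 alone and 1.20 for those of replicate 2 alone.

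The members lay in 970 introns of 873 host genes. First introns held 299 of them (28.3%, 25.7 to 31.1), against 23.3% of weaker intronic regions and 21.8% of eligible intron bases. That came to 51.7 members per Mb of first intron and 36.5 per Mb of other introns. The share was 26.4% in the list of replicate 1 alone and 28.6% in that of replicate 2 alone. It was highest at ranks 501 to 1000, at 42.5% of 87 members. It was 19.9% when the promoter window was widened to 2000 bp upstream and 500 bp downstream, which removes most sequence near gene starts and leaves 583 members. The shares of weaker regions and of eligible bases were not recounted with that window, so the 19.9% has no matching comparison. The nearest coding start site lay a median of 1225.5 bp from the summit, against 1312.5 bp for weaker intronic regions, and at most 20343 bp.

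Long introns held many of the members. The median host intron was 1019.5 bp long (interquartile range 367 to 3593 bp), against 872 bp for weaker intronic regions and 67 bp over all 86789 autosomal introns. Counting each intron once gave a median of 872 bp for members and 705 bp for weaker regions. By length of sequence the picture was less simple. Members per Mb numbered 42.3 in introns up to 100 bp, 53.1 in those of 101 to 300 bp, 33.3 at 301 to 1000 bp, 32.2 at 1001 to 3000 bp, 53.6 at 3001 to 10000 bp and 56.5 over 10000 bp. Weaker intronic regions had their lowest density at 1001 to 3000 bp too, with 200 per Mb. Their highest densities were 288 per Mb up to 100 bp and 275 per Mb over 10000 bp, so the longest introns were dense in both sets. Introns of 3001 to 10000 bp held 23.0% of members and 17.2% of weaker regions.

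**Figure D4:**
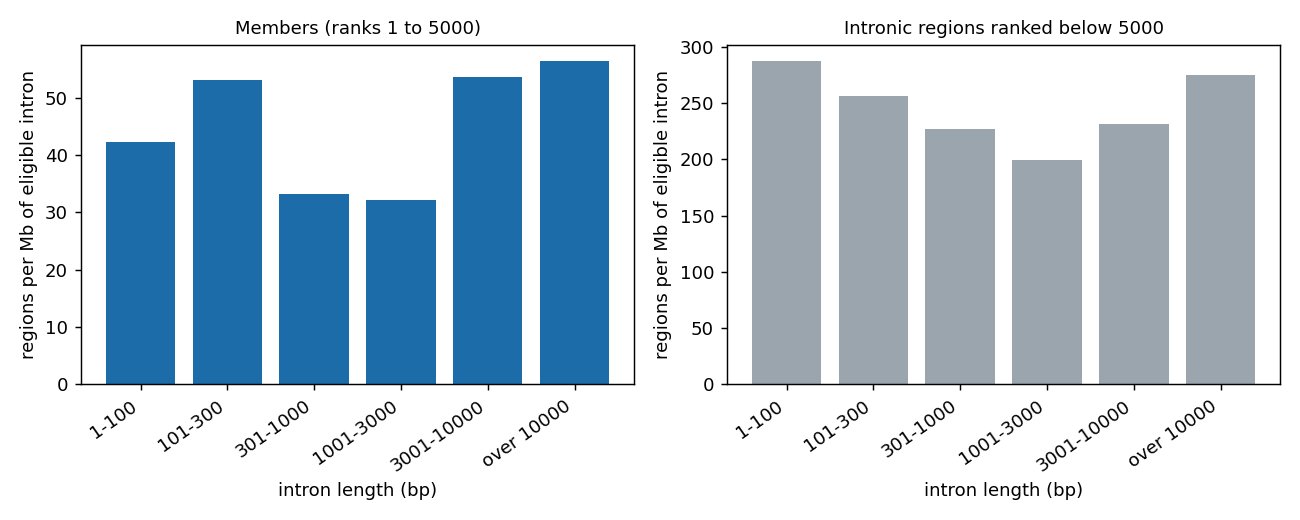
Intronic regions per Mb of eligible intron (y axes, each from 0) by length of the host intron (x axes, in bp), for members at ranks 1 to 5000 (left, blue) and for weaker intronic regions ranked below 5000 (right, grey). Both panels are lowest at 1001 to 3000 bp, at 32.2 and 200 per Mb, and the blue bars are highest over 10000 bp, at 56.5 per Mb. The grey bars are highest up to 100 bp, at 288 per Mb, and next over 10000 bp, at 275 per Mb.

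Summits lay somewhat farther from exons than those of weaker intronic regions. The median distance to the nearest exon of the host was 193.5 bp, against 172 bp. A summit lay within 50 bp of an exon for 241 members (22.8%, against 25.6%) and more than 1000 bp from any exon of the host for 225 (21.3%, against 15.6%). The whole 304 bp region fitted inside the intron for 582 members (55.1%), so the others overlap an exon of the host even though their summit does not. In 73 members (6.91%) the summit lay in an exon of another gene nested in or overlapping the host, a coding gene in 29 of them, against 4.19% of weaker intronic regions.

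Small RNA genes stood beside a minority of members but were frequent at the top. A tRNA, snoRNA, snRNA or microRNA gene lay within 200 bp of 35 members (3.31%, 2.39 to 4.57), against 62 of 6088 weaker intronic regions (1.02%). Of the 14 members at ranks 1 to 106, 3 had one (21.4%), as did 9.86% of members from rank 107 to 500, 6.90% from rank 501 to 1000 and 0.469% from rank 4001 to 5000. By kind, 13 members lay at tRNA genes (1.23%, against 0.411% of weaker regions), 11 at snoRNA genes (1.04%, against 0.312%), 6 at microRNA genes (0.568%, against 0.214%) and 5 at snRNA genes (0.473%, against 0.0821%). A region was present in both replicates for 24 of the 35 (68.6%) and for 59.3% of the 1021 other members. The 35 had a median pooled signal of 32.9, against 29.1 for the others. Presence in both replicates fell with rank, and the 2 sets were not matched by rank. By contrast, piRNA genes, which are numerous in introns of chromosome IV, stood beside 3.69% of members and 3.71% of weaker regions.

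The snoRNA members illustrate the spacing. In pxn-1 the summit lay 59 bp upstream of the 5′ end of ZK994.7, and in haf-9 it lay 2 bp upstream of ZK484.9, which runs opposite to its host. In frm-7 a summit with a pooled signal of 49.7 (18.9 in replicate 1 and 23.8 in replicate 2) lay inside C51F7.4 and 50 bp upstream of C51F7.3. Of the 12 snoRNA genes involved, 6 held the summit and 10 ran in the direction of their host. The median position was 6.5 bp downstream of the RNA's 5′ end, within a range of 66 bp upstream to 130 bp downstream.

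At snRNA genes no summit lay inside the RNA gene. The strongest was 22 bp upstream of R07E5.16 in dhc-4. Another lay 52 bp upstream of sls-2.15, a gene for the SL2 spliced leader RNA used in trans-splicing, in intron 4 of W09D6.5, with a pooled signal of 37.9, 22.1 in replicate 1 and 12.5 in replicate 2. At tRNA genes, 9 of 13 summits lay inside the RNA gene. Over all 13 the median position was 32 bp downstream of the RNA's 5′ end. Of these 13 members, 9 had a run of 36 bases that occurs elsewhere in the genome, and 5 lacked a region in 1 replicate. None of the members at snoRNA, snRNA or microRNA genes had such a run. The tRNA members were weaker, the highest being in lelo-2 at a pooled signal of 44.6 (17.02 in replicate 1 and 18.7 in replicate 2). Among microRNA genes, a summit lay 4 bp upstream of the annotated 5′ end of cel-mir-86 in Y56A3A.7 (34.5 pooled, 22.6 in replicate 1 and 16.5 in replicate 2) and another 7 bp past the 3′ end of cel-mir-71 in ppfr-1 (35.6, 21.0 and 16.7).

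**Figure D5:**
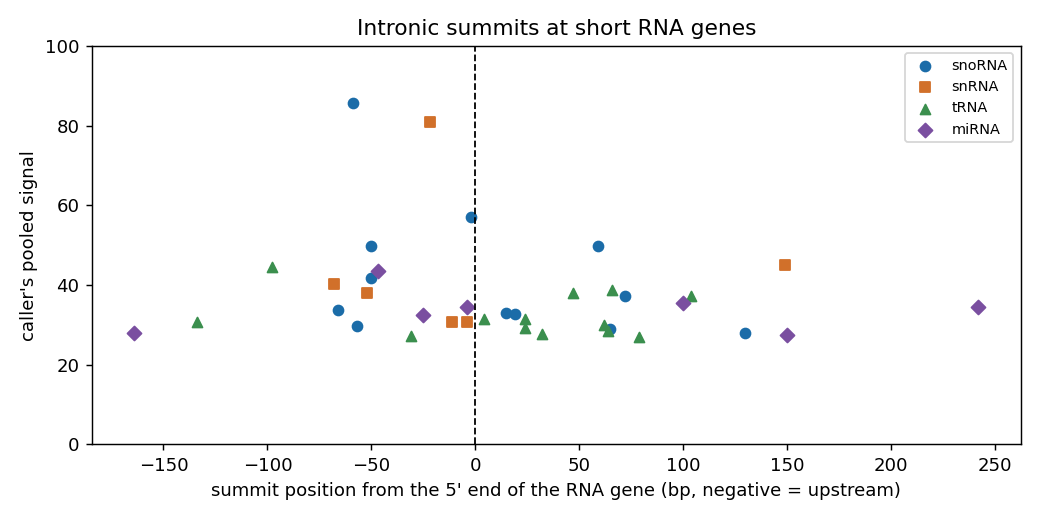
Pooled signal of intronic members (y axis) against the position of their summit from the 5′ end of a small RNA gene within 200 bp (x axis, bp, negative is upstream), with a point for each pair of member and RNA gene; blue circles are snoRNA, orange squares snRNA, green triangles tRNA and purple diamonds microRNA genes. The highest points, at 85.6 and 81.0, lie upstream of a snoRNA and an snRNA gene, and most tRNA points lie downstream of the 5′ end.

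Seen from the RNA genes, most had no member. Of 146 snoRNA genes with bases in eligible intron, 12 had a member within 200 bp (8.22%, 4.76 to 13.8). The same was true of 13 of 172 tRNA genes (7.56%), 6 of 51 genes annotated as snRNA (11.8%) and 6 of 68 microRNA genes (8.82%). The 6 snRNA genes include mir-1831, which carries a microRNA's name and lies inside sup-39, so that 1 member stood beside both. GC content moved with these members. The 101 bases around the summit held 46.9% ± 8.24 GC (SD, n = 35 regions) near a small RNA gene and 36.6% ± 7.81 in the other 1021 members. The part of GC content in the signal was not tested.

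Most host genes had a single member. Of 873 hosts, 748 had 1 member, 90 had 2, 18 had 3, 12 had 4, 4 had 5 and 1 had 6. The 6 members of T28B11.1 all lay in its first intron of 17091 bp, with pooled signals from 27.9 to 37.0, and 4 of the 6 had a region in both replicates. aakg-1 had 5 members in 2 introns with signals from 26.8 to 59.1, and 4 of the 5 were in both replicates. mnk-1 (a MAP kinase interacting kinase), pac-1 and tent-5 (a terminal nucleotidyltransferase) had 5 each, of which 3, 4 and 1 were in both replicates. kin-1, vhp-1 (a MAP kinase phosphatase) and ppfr-1 (a regulatory subunit of protein phosphatase 4) had 4 each, with 4, 4 and 3 in both. These hosts hold long introns, with 6554 bp of eligible intron in mnk-1 and 30758 bp in aakg-1. Neighbouring members were mostly separate regions, since only 2 pairs had summits within 304 bp of each other.

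Hosts were counted in 12 gene lists, each set beside all 16379 autosomal coding genes with eligible intron, of which 873 (5.33%) were hosts, at 39.8 members per Mb when overlapping introns are counted for each gene. Of 32 axon guidance, adhesion and extracellular matrix genes, 14 were hosts (43.8%), at 55.4 members per Mb. Among them were plx-1, a plexin receptor (pooled signal 43.7, 20.2 in replicate 1 and 21.98 in replicate 2), hmr-1, the classical cadherin (37.0, 14.4 and 9.40), and casy-1, a calsyntenin (32.8, 18.1 and 10.9). These genes have long introns, with a median of 6933.5 bp eligible per gene, against 666 bp over all genes, so the share of hosts exceeds the density by far.

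Of 36 body wall muscle and sarcomere genes, 7 were hosts (19.4%), with 12 members at 58.6 per Mb. They included unc-68, the ryanodine receptor (40.2 pooled, 15.96 in replicate 1 and 22.2 in replicate 2), zyx-1, a zyxin (39.3, 15.7 and 23.8), unc-15, paramyosin (34.2, 18.4 and 9.13), and unc-22, twitchin (32.9, 13.6 and 16.6). Of 33 intestine and lipid metabolism genes, 6 were hosts (18.2%), with 72.1 members per Mb. Examples are ifb-2, an intestinal intermediate filament (29.6, 11.5 and 16.4), and the fatty acid desaturases fat-3 (28.4, 19.1 and no region in replicate 2) and fat-4 (28.3, 15.8 and 12.4). These densities rest on few members each, and no intestinal region exceeded a pooled signal of 29.6, near the median of all members.

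Of 247 nuclear hormone receptor genes, 13 were hosts (5.26%, against 5.33% of all genes), with 42.5 members per Mb, and they had a median of 800 bp of eligible intron, against 666 bp. The strongest was nhr-21, followed by nhr-19 (38.3 pooled, 20.8 in replicate 1 and 13.6 in replicate 2), nhr-46 (34.7, 16.5 and 16.7) and nhr-49 (32.3, 26.04 in replicate 2 and no region in replicate 1), a receptor that regulates fat metabolism. Of 83 homeobox and other developmental transcription factor genes, 7 were hosts (8.43%), at 40.7 per Mb, among them the TEAD factor egl-44, the TFEB-like hlh-30 and the FOXO factor daf-16. The strongest region at each of these 3 genes had a summit within 100 bp in 1 replicate only. The nearest summit in the other replicate was 365 bp away for egl-44, 180 bp for hlh-30 and 126 bp for daf-16. Channels and synaptic proteins had 8 hosts of 52 (15.4%) at 35.6 per Mb, including unc-43, calcium/calmodulin-dependent kinase II, and egl-8, phospholipase C beta.

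The other lists, except the pharyngeal one, had a smaller share of hosts than the 5.33% over all genes. Chemoreceptor and G protein-coupled receptor genes had 24 hosts of 1321 (1.82%) at 20.8 members per Mb. Hypodermal and cuticle genes had 3 of 162 (1.85%) at 19.8 per Mb, and P450, UGT and glutathione S-transferase genes had 4 of 171 (2.34%) at 26.9 per Mb. Ribosomal protein and translation factor genes had 3 hosts of 108 (2.78%), eif-3.H, rpl-6 and rps-18, the density of 79.3 per Mb resting on only 0.0378 Mb of intron. The rpl-6 summit lay inside the snoRNA gene R151.12. Germline genes had 1 host of 42 (2.38%) at 21.9 members per Mb. Pharyngeal genes had 2 hosts of 30 (6.67%) at 46.3 per Mb, which is not below the 39.8 per Mb over all genes.

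The bases around intronic summits were richer in G and C than other intron sequence. GC content over 101 bases was 36.9% ± 8.03 (SD, n = 1056 regions), against 34.7% ± 7.67 for weaker intronic regions and a mean of 33.1% over 52090 windows tiled along eligible introns. Promoter regions had 38.5%, intergenic regions 37.0% and exonic regions 40.5%. Among intronic regions the mean was 45.8% for ranks 1 to 106, 40.5% from rank 107 to 500, 36.9% from rank 1001 to 2000 and 34.1% for ranks past 20000. Rank and GC content therefore moved together, and the part of base composition in the ranking was not tested.

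Of the 10 fixed words, GAGAGA differed between members and other intron sequence by the most percentage points. It was in 91 of the 1056 windows (8.62%, 7.07 to 10.5), against 5.32% of weaker intronic windows and 3.97% of tiled intron windows. Promoter regions of the same ranks held it in 11.2%, and all 30000 pooled regions in 6.67%. In the replicates' own lists, 9.38% of the intronic regions of replicate 1 and 8.08% of those of replicate 2 held it. Within the members it was found in 8.45% to 11.0% in each of the 4 steps of 1000 ranks down to rank 4000, and in 3.76% (8 of 213) in the last step. Members with the word had 41.6% GC and those without it 36.4%, so the word and the base composition moved together.

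The nuclear receptor half-site words were close to their share in weaker intronic regions. AGGTCA was in 3.13% of member windows (2.23 to 4.36), against 2.66% of weaker intronic windows and 2.17% of tiled ones, and AGTTCA was in 6.63% (5.28 to 8.29), against 6.37% and 5.81%. GATAA, the core of sites for GATA factors such as those of the intestine, was in 20.1%, against 18.99% and 19.9%. CACGTG, an E-box, was in 2.94% (2.08 to 4.14), against 1.58% and 1.38%. GTAAACA was in 1.80%, against 1.05% and 0.966%, and TGACTCA in 0.758%, against 0.608% and 0.751%. CGCGCA was in 2.27%, against 1.72% and 1.63%, and GAGCGC in 1.80%, against 1.17% and 1.48%. CCTGCG was in 1.61% (1.01 to 2.56), against 0.871% and 0.977%. Promoter regions held CGCGCA in 5.17%, GAGCGC in 4.88% and CCTGCG in 1.76%. A run of 36 bases that occurs elsewhere in the genome was in 39 member windows (3.69%), against 5.42% of weaker intronic windows.

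The neighbourhood of nhr-84 itself was dense in regions. Within 20 kb of the gene (chrV:15876732-15879608 on ce11, minus strand) lay 40 pooled regions, 22 of them at ranks 1 to 5000. Members numbered 3 on 7.025 kb of eligible intron, which is 427 per Mb against 40.5 over all autosomes. They lay in cgt-1, in srh-148, a chemoreceptor gene (39.6 pooled, 12.5 in replicate 1 and 20.1 in replicate 2), and in intron 4 of nhr-84 (28.2 pooled, 10.7 in replicate 2 and no region in replicate 1). The transgene may carry copies of this stretch, and reads from it and from the endogenous locus cannot be told apart in these lists.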

How the data were processed

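The labels give 2 biological replicates of 1 group, ChIP-seq after sonication of whole L1 larvae. The authors deposited region lists in narrowPeak format on ce10 and ce11, and the ce11 lists were used: 1 per replicate, 1 of the replicates pooled (30000 regions each) and 1 of 106 regions that passed the irreproducible discovery rate step. Per the deposited file records, they were made from the alignments and a control alignment. The aligner, the caller and the threshold applied were not given in the sources used here. Each list's deposited signal has a scale of its own, set by the caller, and the deposited −log10 q-value was turned into q. Regions are 304 bp wide in the pooled list and in replicate 2, and 290 bp in replicate 1. With no read counts, depth is unknown and the precision of a signal cannot be given. As each list was taken down to 30000 regions, it includes background.

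From these lists, regions were ranked by signal and placed on the Ensembl 115 gene set, whose assembly is that of ce11. Introns are the gaps between the merged exons of a gene's transcripts. A summit in several genes was given to the gene with the shortest intron there. Replicate regions were matched at summits within 100 bp, noncoding RNA genes were sought within 200 bp, and GC content and words were read over 101 bases. Tiled intron windows were centred every 500 bp. Shares have 95% Wilson intervals. No test was made, since the pooled signal chose the members and the regions share their libraries. The placement was checked on simulated summits, of which 4000 of 4000 got the right class and 2538 of 2538 the right host and intron number.

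The members, gene lists and words were chosen with earlier results of these data known. Genes named are the hosts of the 20 strongest members, the 8 hosts with most members, up to 4 hosts per list, up to 8 strongest members at noncoding RNA genes other than piRNA genes, members within 20 kb of nhr-84, and the 3 regions on either side of rank 5000. Other snRNA, microRNA and snoRNA members named (W09D6.5, Y56A3A.7 at cel-mir-86, ppfr-1 at cel-mir-71, rpl-6 at R151.12) were chosen after their values were seen. Alternatives were other promoter windows, exon definitions, rank limits, distances, windows and each replicate alone. Python 3.11.15, numpy 2.4.6, pandas 2.3.3, scipy 1.17.1 and matplotlib 3.10.9 were used.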

Additional observations from a re-analysis of the deposited data

How the results depend on the processing

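The number of intronic regions was 583 with a promoter window of 2000 bp upstream and 500 bp downstream and 495 within ranks 1 to 2500, and stayed within 1.5 times of 1056 under the other alternatives, at 1023 to 1102 when 1 replicate's list was left out. The share found in both replicates was 43.1% for summits within 50 bp, 75.5% within 200 bp and 73.7% in ranks 1 to 2500. The share in first introns was 25.3% with a window of 1000 bp upstream and 200 bp downstream, 19.9% with the widest window and 31.5% in ranks 1 to 2500, against 26.4% to 28.6% with a replicate left out. The median intron length was 1060 bp and 1171 bp with the wider windows, 1169 bp in ranks 1 to 2500, 872 bp with each intron counted once and 1023 to 1034 bp with a replicate left out. The median GC content was 36.8% over 100 bp on either side and 36.6% in ranks 1 to 2500. The share within 200 bp of any noncoding RNA gene, 12.1%, was 8.81% within 100 bp, 3.88% inside the gene and 10.3% to 11.9% with a replicate left out. A wider window or distance takes in more sequence by construction, and the cause of the other shifts was not tested. Of 69 alternatives over 19 results, 39 counted as no move and 30 as a move, 10 of these among the 30 for words. Shares were judged by their interval and counts by the factor of 1.5. Medians and the ratio of middle to outer density were judged by the SD of the values from each replicate alone. For the median GC content both replicates gave 35.6%, so any change counted as a move. No paired analysis was possible because only 1 group was studied. Limits are the unknown depth, the control that was not analysed here, and q-values over 0.5 for 98.3% of members, by which they cannot be told apart from background.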

Other observations

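All 2080 words of 6 bases, on both strands, were compared between member and weaker intronic windows on chromosomes I, III and V (675 members). The 12 with the greatest excess were then described on II and IV (381 members), where 9 were more frequent in members. The share of all 2080 words more frequent in members there was not counted, so the 9 have no baseline. Several of the 12 overlap one another, GAAGAA and AGAAGA among them. GAAGAA was in 14.4% of member windows and 10.9% of weaker windows on I, III and V, and in 16.3% and 10.03% on II and IV. The word AGAAGA was in 10.8% and 8.10% on I, III and V, and in 11.5% and 7.66% on II and IV. TCATCA, first in the ordering at 8.74% and 4.82%, was at 5.77% and 5.58% on II and IV. AT-rich words were less frequent in members on both sets of chromosomes, with AAAATT at 42.96% and 54.2%, then at 42.8% and 53.6%. Both sets of chromosomes come from the same libraries, and base composition moved with these words in the same windows.

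Genes of the biotype ncRNA lay within 200 bp of 66 members (6.25%, 4.94 to 7.87), against 3.25% of weaker intronic regions, and antisense RNA genes beside 4 members (0.379%, against 0.197%).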
